A study of Rattus norvegicus with 17 samples.

Results

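The genes described here are Rn45s and Rn18s, the rat entries for the 45S precursor of ribosomal RNA and for the mature 18S ribosomal RNA. They are 2 of the 34322 genes of the count table, picked by name because their share of the counted fragments differed between the diets. The levels by diet are therefore given as a description, with no test. RNA was sequenced from the hippocampus of 17 Long-Evans rats of 36 to 38 days of age. Their dams received, from gestational day 0 to 20, a liquid diet with 6.7% ethanol (ET, 5 rats), the same kind of liquid diet without ethanol in pair-fed amounts (PF, 6 rats) or chow ad libitum (AD, 6 rats). The offspring themselves were not given ethanol, and each diet group was a single litter, so litter and diet cannot be told apart. P-values therefore measure the spread between rats within a litter. The ET group held 3 males and 2 females, and the PF and AD groups held 3 of each sex. The right hippocampus was used for 1 ET, 2 PF and 1 AD rat, and the left for the others.

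Ribosomal RNA makes up most of the RNA of a cell. In the nucleolus, RNA polymerase I transcribes the repeated ribosomal DNA into the 45S precursor, and cleavage and modification of that precursor release the 18S RNA of the small ribosomal subunit and the 5.8S and 28S RNAs of the large one. None of these RNAs carries the poly(A) tail of a messenger RNA. The libraries were made with a kit that selects messenger RNA, so the counts are of ribosomal RNA fragments that passed the selection and are not a measure of the ribosomal RNA content of the tissue. The ribosomal DNA repeat has many near-identical copies, and how fragments were divided between annotated copies is uncertain for every gene of this kind.

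As means of the 3 technical replicates, the libraries held between 10853947 and 17498392 counted fragments. The ranges overlapped between ET (10853947 to 15156341), PF (12245959 to 14094113) and AD (11392019 to 17498392). Summed over the technical replicates, the totals were 32561841 to 52495177. All 10 marker genes of hippocampal neurons were detected, and their summed level lay between 8727 and 10910 CPM, the count scaled to a library total of 1000000 in the 17 libraries. In 3 libraries, ET replicate 2, PF animal 11f6 and AD replicate 4, the choroid plexus transcript Ttr stood at 6667 to 8336 CPM, against at most 1108 CPM elsewhere. The study left these 3 libraries out of its final set of 14. The sex labels of 2 AD libraries, replicates 1 and 2, went against their Y-linked genes. The animals 11f5 and 11f6 are named by their column headings, since the labels do not say which is replicate 4 and which is replicate 5.

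On average, Rn45s was lowest in the ET libraries. Its count, the mean of the 3 technical replicates of a rat, was 19.7, 9.3, 4.7, 3.3 and 30.3 in ET replicates 1 to 5. As a share of all counted fragments these were 1.51, 0.860, 0.308, 0.238 and 2.21 CPM. The lowest and the highest ET library differed 9.31-fold, and their 95% binomial intervals (Wilson), 0.129 to 0.437 CPM and 1.80 to 2.72 CPM, did not overlap. These intervals cover counting error only.

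In the PF libraries the Rn45s count was 694.7, 316, 408.3 and 592 in replicates 1, 2, 3 and 6, and 697.7 and 471 in animals 11f5 and 11f6. The shares were 49.3, 23.0, 31.1 and 43.2 CPM in those replicates, and 51.5 and 38.5 CPM in the 2 animals. The lowest PF library, replicate 2, was above every library of the other diets.

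In AD replicates 1 to 6 the Rn45s count was 122.7, 41.3, 33.3, 42, 34.3 and 25. The shares were 8.68, 2.36, 2.49, 3.51, 2.82 and 2.19 CPM. AD replicate 1 lay apart from the other 5, which ranged from 2.19 to 3.51 CPM, and it is 1 of the 2 libraries whose sex label went against the Y-linked genes.

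**Figure D1:**
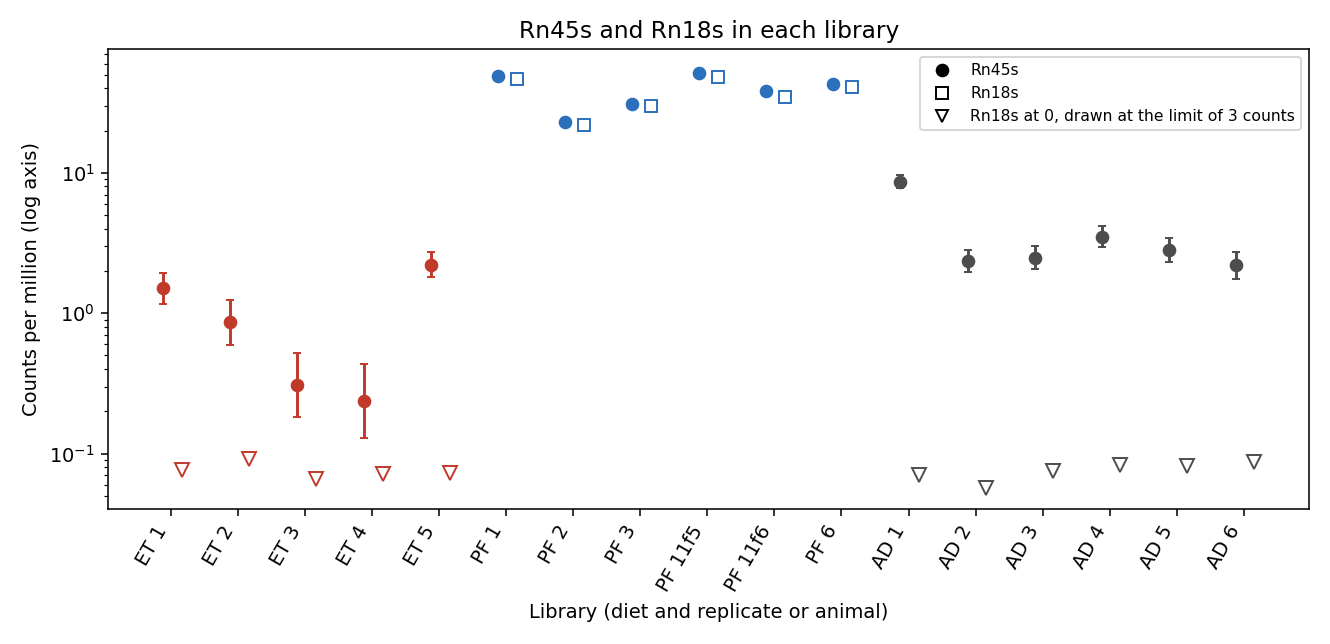
Level of Rn45s (filled circles) and Rn18s (open squares) in CPM on a log axis, 1 position for each of the 17 libraries, with 95% binomial intervals. Open triangles mark the 11 ET and AD libraries with Rn18s at 0, drawn at the limit that 0 counts allow (3 fragments over the technical replicates). Both genes lie between 22.1 and 51.5 CPM in every PF library.

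The mean level of Rn45s was 1.03 ± 0.838 CPM in ET (SD, n = 5), 39.4 ± 10.9 CPM in PF (SD, n = 6) and 3.68 ± 2.49 CPM in AD (SD, n = 6). The PF mean was 38.4 times the ET mean and 10.7 times the AD mean, and the AD mean was 3.58 times the ET mean. These are ratios of counts, and it was not tested whether fragments shared with Rn18s, which lies within Rn45s, were counted alike in all diets. The PF and ET ranges did not overlap, nor did the PF and AD ranges. Across all genes tested, 2.13% were called lower in ET than in PF and 2.02% higher in PF than in AD, where a call is an adjusted p-value below 0.01 with a log2 fold change past 1.5 (quasi-likelihood test of edgeR, Benjamini-Hochberg adjustment). Both members are among the genes so called, and nothing is read from this since the members were chosen on that contrast. ET and AD were neighbours in the order of the levels. AD was higher in 29 of the 30 pairs of an AD and an ET library, and in the other pair ET replicate 5, at 2.21 CPM, was above AD replicate 6, at 2.19 CPM. Without the 3 libraries that the study left out, the PF mean was 37.1 times the ET mean and 10.7 times the AD mean. In that set the ET mean was 1.07 CPM, and 0.685 CPM without ET replicate 5. The AD mean was 3.71 CPM, and 2.47 CPM without AD replicate 1. Leaving out either of these libraries makes the ratio to its diet larger.

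Rn18s was at 0 in every ET and AD library, 11 in all. In PF its count was 653, 304, 395.7 and 563 in replicates 1, 2, 3 and 6, and 649 and 422.7 in animals 11f5 and 11f6. The PF shares ranged from 22.1 to 47.9 CPM, with a mean of 37.0 ± 9.99 CPM (SD, n = 6). Over the technical replicates of a library, 0 fragments allow a level of up to 0.0571 to 0.0921 CPM in the ET and AD libraries (3 fragments per library). The mean level in PF was at least 401.8-fold higher than the highest of these limits. The limits hold for fragments that were countable for Rn18s in ET and AD, which was not tested. Detection of Rn18s was all or none by diet, whereas Rn45s was counted in each of the 17 libraries.

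Rn18s was not the only gene counted in PF alone. In all, 98 genes were at 0 in every ET and AD library and above 0 in every PF library. The reverse, 0 in every PF library and counts in all others, was found for 0 genes. Rn18s had the highest mean count of the 98, and the next were Rybp, Apeg3, LOC688754, and the pair Gdf1 and Cers1, which had identical counts. Of the 98, 76 could be matched by symbol to the RefSeq gene table of the assembly GRCr8, and the spans of 61 of these (80.3%) overlapped another gene, against 44.3% of all matched genes with counts.

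Rn18s itself lies within Rn45s. In that gene table Rn45s spans 8679 bases and Rn18s 1872, and the span of Rn18s falls inside that of Rn45s and shares 1 of its ends. The assembly differs from the one the authors mapped to, mRatBN7.2, so the nesting is given for GRCr8 and no position is printed. A fragment from the nested stretch meets the annotation of both genes. In featureCounts such a fragment is counted for both genes where reads may count for several features, and otherwise for neither. The authors state the first setting and name no other for any diet. Whether it was applied alike to the libraries of all 3 diets was not tested, since the fragments were not analysed here. The ratios of Rn45s and Rn18s between the diets are ratios of counts, and are not shown to be ratios of RNA.

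**Figure D2:**
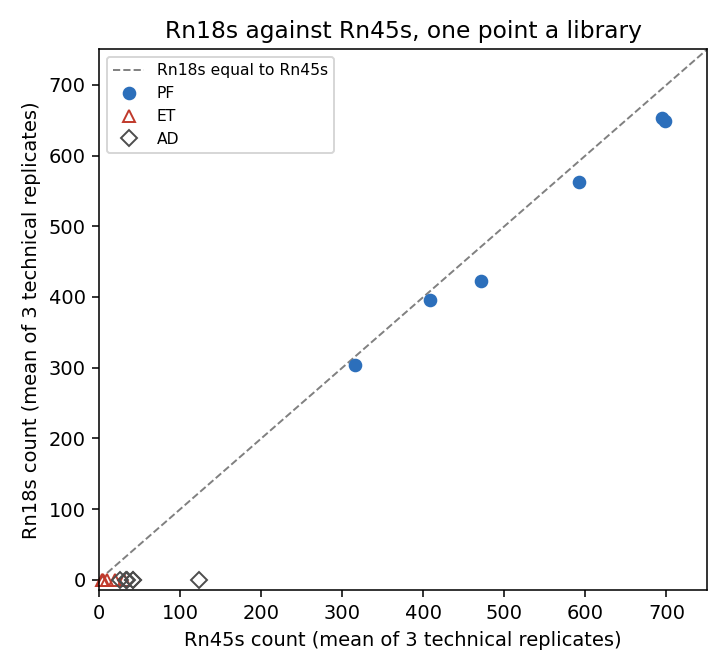
Rn18s count against Rn45s count, 1 point a library, both as means of 3 technical replicates. The 6 PF libraries (filled circles) follow the dashed line of equal counts from just below it, and the ET (triangles) and AD (diamonds) libraries lie at an Rn18s count of 0.

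Within PF the counts of the pair were nearly the same. Rn18s stood at 94.0%, 96.2%, 96.9% and 95.1% of the Rn45s count in PF replicates 1, 2, 3 and 6, and at 93.0% and 89.7% in animals 11f5 and 11f6, with a mean of 94.2% ± 2.59 (SD, n = 6). The levels of both genes varied together over the 6 PF libraries, with Pearson's r = 0.997 and Spearman's rho = 1 on log2(CPM + 1). Without the 2 libraries farthest from the median of Rn45s, r was 0.990. These coefficients are a description with no test, since the Rn18s count is nearly the whole of the Rn45s count. The counts per kilobase were 162 to 349 over Rn18s and 1.76 to 7.15 over the 6807 bases of Rn45s outside it. Their ratio was 31.8 to 114 in the 6 libraries. The values outside Rn18s hold only if every fragment counted for Rn18s was also counted for Rn45s, which was not tested.

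If every fragment counted for Rn18s was also counted for Rn45s, which was not tested, subtracting the Rn18s count from the Rn45s count leaves the fragments counted for Rn45s alone. This subtraction was chosen after the values were seen. In PF the remaining count was 41.7, 12, 12.7 and 29 in replicates 1, 2, 3 and 6, and 48.7 and 48.3 in animals 11f5 and 11f6. In ET and AD nothing was subtracted, and the counts were those of Rn45s.

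The remaining level in PF was 2.41 ± 1.31 CPM (SD, n = 6), with a range of 0.872 to 3.95 CPM. This range overlapped both that of ET, 0.238 to 2.21 CPM, and that of AD, 2.19 to 8.68 CPM. The PF mean was 2.35 times the ET mean, and the AD mean was 1.53 times the PF mean. PF was the higher in 25 of 30 pairs with an ET library and in 14 of 36 pairs with an AD library, where before the subtraction it was the higher in all 30 and all 36. Diet groups no longer stood in the order of the Rn45s levels, and the highest mean was that of AD. Without the 3 libraries left out by the study, the PF mean was 1.97 times the ET mean and the AD mean 1.77 times the PF mean. In that set the first ratio was 3.07 without ET replicate 5, and the second was 1.175 without AD replicate 1.

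**Figure D3:**
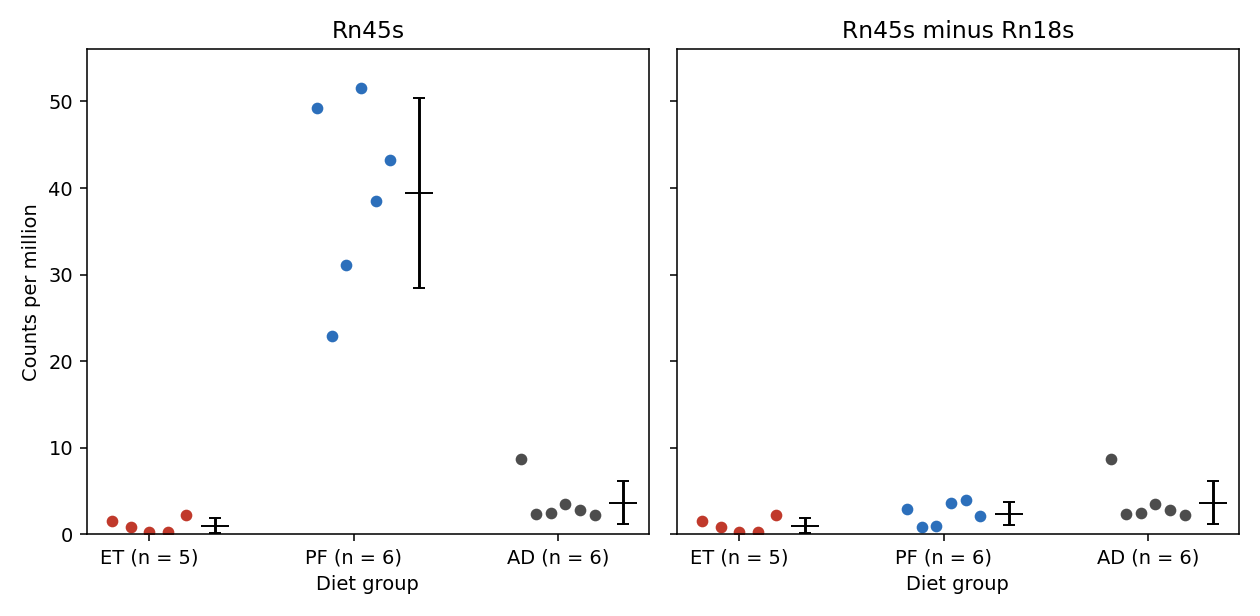
Level of Rn45s (left) and of Rn45s minus Rn18s (right) in CPM, on a common axis from 0. Points are libraries, and the bars beside them are the mean ± SD of each diet (ET n = 5, PF n = 6, AD n = 6). The PF mean is 39.4 CPM on the left and 2.41 CPM on the right, while the ET and AD values are the same on both sides.

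As a description with no test, Pearson's r between the remaining share and that of Rn18s was 0.700 and Spearman's rho 0.657 over the 6 PF libraries. Without the 2 libraries farthest from the median of Rn18s, r was 0.354.

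The levels of both genes varied more between rats of a diet than those of most genes of like abundance. The coefficient of variation of Rn45s was 81.7% in ET, 27.8% in PF and 67.8% in AD, and that of Rn18s was 27.0% in PF. Among genes with 0.5 to 2 times the same mean count, the median was 26.5% in ET, 7.28% in PF and 15.1% in AD for Rn45s, and 7.37% in PF for Rn18s. Rn45s was more variable than 96.1%, 97.5% and 95.8% of those genes in ET, PF and AD, and Rn18s than 97.1% in PF. The value in AD rested on replicate 1. Without it the coefficient of variation of Rn45s in AD was 19.4%, beside a median of 17.8% among genes of like mean count, and Rn45s was more variable than 56.3% of them. By mean level, Rn45s stood above 42.1% of the genes with counts in ET, 79.1% in PF and 51.4% in AD.

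The other annotated ribosomal RNAs gave few counts. Of 76 genes of this type in the table, 74 are not members, and 47 of those were at 0 in every library, 25 never rose above a count of 3, and 2 did. The 74 together made up 2.05 ± 1.41 CPM in ET (SD, n = 5), 2.56 ± 0.787 CPM in PF (SD, n = 6) and 1.54 ± 0.523 CPM in AD (SD, n = 6), with overlapping ranges. The other mature products of the precursor, Rn28s and Rn5-8s, were among the genes with hardly any or no counts.

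The gene LOC120102105 has the length of Rn18s, 1872 bases, and was counted in all 3 diets. Its count was 12.3, 40, 9.3, 5 and 7.7 in ET replicates 1 to 5. It was 21.7, 11.3, 11.3 and 16.3 in PF replicates 1, 2, 3 and 6, and 23 and 10.3 in animals 11f5 and 11f6. It was 6.3, 10.3, 12.3, 2.7, 12.7 and 6 in AD replicates 1 to 6. The 3 ranges overlapped, and the highest value, in ET replicate 2, came from a library the study left out. In the final 14 libraries its log2 fold change was -0.98 (SE 0.31, adjusted p = 0.16, edgeR) in ET against PF and 0.80 (SE 0.29, adjusted p = 0.18) in PF against AD. With all 17 libraries the ET against PF value was 0.01.

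The gene LOC120093067, of 4801 bases, had a mean count of 7.47 ± 3.89 in ET (SD, n = 5), 15.4 ± 5.75 in PF (SD, n = 6) and 9.39 ± 4.87 in AD (SD, n = 6). Its log2 fold change was -0.97 (SE 0.40, adjusted p = 0.37, edgeR) in ET against PF. Neither gene passed the threshold. Per kilobase, the level of LOC120102105 in PF was 0.620 ± 0.205 CPM per kb, that of Rn18s 19.8 ± 5.34 and that of Rn45s outside Rn18s 0.354 ± 0.193 (SD, n = 6 each). In AD, LOC120102105 stood at 0.334 ± 0.163 CPM per kb and Rn45s outside Rn18s at 0.540 ± 0.366 (SD, n = 6 each). Rn18s alone among these stretches was far above the others in PF and at 0 in AD. The values for Rn45s outside Rn18s rest on the subtraction, and in AD the whole Rn45s count was divided by the length outside Rn18s. Whether some of those fragments came from the Rn18s stretch was not tested. Over its full length Rn45s stood at 0.424 ± 0.287 CPM per kb in AD (SD, n = 6).

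The genes that make and process ribosomal RNA were compared between the diets in 3 lists. No gene was called among 25 genes of RNA polymerase I transcription, 46 of pre-rRNA processing and 11 of nucleolar silencing of ribosomal DNA, in ET against PF, in PF against AD or in ET against AD, by edgeR or by DESeq2. For comparison, 2.17%, 2.05% and 0.0127% of all genes tested were called in either direction in these comparisons. At an unadjusted p below 0.05 by edgeR, 1, 1 and 0 genes of the 3 lists differed in ET against PF, 1, 3 and 2 in PF against AD, and 0 of each in ET against AD. Over all genes tested, 11.9%, 16.4% and 2.74% passed that threshold in the 3 comparisons. The median log2 fold changes in ET against PF were -0.01, 0.01 and -0.04, beside 0.01 over all genes. The silencing list was not divided into genes that silence and genes that activate ribosomal DNA, so its median gives no direction of silencing.

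Polr1g, a subunit of RNA polymerase I, had the smallest p-value of the transcription list in ET against PF, and stood at -0.26 on the log2 scale (SE 0.080, adjusted p = 0.15, edgeR). It was followed by Polr1b, the second largest subunit (-0.18), and Taf1a, of the promoter selectivity factor (-0.14). Of the processing list, Tsr1, needed for maturation of the small subunit, stood at 28.5 ± 3.68 CPM in ET (SD, n = 4) and 38.5 ± 2.25 CPM in PF (SD, n = 5). Its log2 fold change was -0.42 (SE 0.099, adjusted p = 0.039, edgeR) in ET against PF and 0.41 (SE 0.053, adjusted p = 0.00026) in PF against AD, short of the fold threshold in both. Las1l, which takes part in the cleavage that frees 28S RNA, was at -0.10, and Utp15, of the small subunit processome, at -0.11. Of the silencing list, not divided by whether a gene silences or activates ribosomal DNA, the deacetylases Sirt7 and Sirt1 were at 0.09 and -0.08. The histone demethylase Phf8 was at -0.11. Of 79 genes for cytosolic ribosomal proteins tested, 0 were called in any of the 3 comparisons by edgeR or DESeq2, and 4, 4 and 3 had an unadjusted p below 0.05 by edgeR in ET against PF, PF against AD and ET against AD. Over all genes tested, 2.17%, 2.05% and 0.0127% were called and 11.9%, 16.4% and 2.74% had such a p.

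**Figure D4:**
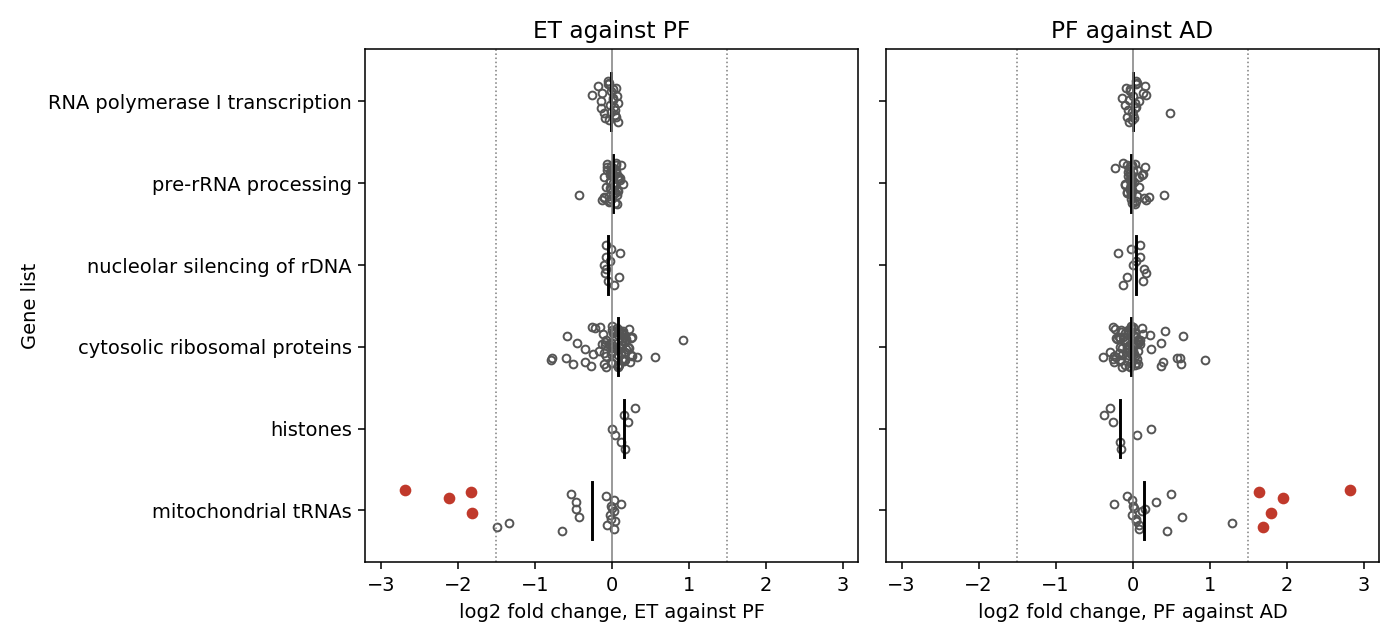
Log2 fold changes of the tested genes of 6 lists in ET against PF (left) and PF against AD (right), 1 point a gene, with list medians as black bars and the fold threshold of 1.5 as dotted lines. Filled red points are called genes. Red points appear in the mitochondrial tRNAs only, 4 on the left and 5 on the right, and the values of the 3 ribosome synthesis lists lie between -0.42 and 0.48.

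Few genes for other RNAs without a long poly(A) tail passed the filter on low counts, although the 22 mitochondrial tRNAs summed to 1251 to 1892 CPM per library. Of 2782 small structured RNAs in the table other than the members, 1126 had a count in some library, and 29 were tested in ET against PF, 30 in PF against AD and 26 in ET against AD. In ET against PF 4 were called, all lower in ET, and in PF against AD 5 were called, all higher in PF. Of all genes tested 2.17% and 2.05% were called in these comparisons, and most calls had the same direction, 343 of 349 being lower in ET and 323 of 327 higher in PF. All of the structured RNAs called were mitochondrial tRNAs, of which 22 were tested in these comparisons. In ET against AD 0 of 26 were called by edgeR or DESeq2, beside 0.0127% of all genes tested by edgeR. Unadjusted p was below 0.05 by edgeR for 13 of 29 in ET against PF and 12 of 30 in PF against AD. In ET against AD it was so for 0 of 26. Over all genes tested the shares were 11.9%, 16.4% and 2.74%.

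Among the called genes, Trna, the mitochondrial tRNA for alanine, changed the most. Its count ranged from 20 to 36 in ET, from 179 to 220 in PF and from 20.0 to 36.7 in AD. Its log2 fold change was -2.68 (SE 0.10, adjusted p = 4.9e-08, edgeR) in ET against PF and 2.82 (SE 0.083, adjusted p = 3e-10) in PF against AD. Both comparisons share the PF libraries. Trnf, for phenylalanine, fell by 2.11 on the log2 scale in ET against PF, Trnn, for asparagine, by 1.81, and Trnc, for cysteine, by 1.82. In PF against AD these rose by 1.95, 1.79 and 1.65, and Trnv, for valine, by 1.70. Without PF replicate 6, Trnc was at 1.40 in PF against AD and was not called. Trnv was just short of the fold threshold in ET against PF, at -1.49 (adjusted p = 0.0052, edgeR). The tRNAs that were not called, Trnv included, had log2 fold changes from -1.49 to 0.11 in ET against PF, and the 17 not called in PF against AD lay between -0.24 and 1.29. Unlike Rn18s, the called tRNAs had counts in every ET and AD library. Their changes are changes of counts. The called tRNAs had no match in the gene table, so their overlap with other genes is unknown here. Whether their fragments were counted alike in all diets was not tested. The RNA component of RNase P, Rpph1, was at -0.28 in ET against PF (SE 0.41, adjusted p = 0.92, edgeR) and at -0.01 in PF against AD.

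Replication-dependent histone messages also lack a poly(A) tail. Of 37 histone genes listed, 7 were tested, and 0 were called in the 3 comparisons by edgeR or DESeq2, with 1, 3 and 1 at an unadjusted p below 0.05 by edgeR in ET against PF, PF against AD and ET against AD. Over all genes tested 2.17%, 2.05% and 0.0127% were called and 11.9%, 16.4% and 2.74% had such a p. The linker histone H1f2 had the smallest p-value in ET against PF, at 0.30 (SE 0.093, adjusted p = 0.14), and Hist1h2bq and Hist3h2ba stood at 0.21 and 0.17. The 7 genes tested ranged from -0.0018 to 0.30 on the log2 scale in ET against PF, and none passed the threshold.

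The share of genes called by overlap with another gene, in the gene table of GRCr8, is given here as a description with no test. Overlap and nesting were judged on whole gene spans on either strand, while fragments were counted on exons. Genes so named need not share an exon. In ET against PF 224 of 6791 overlapping genes (3.30%) and 29 of 8160 matched genes without overlap (0.355%) were called, and of 693 nested genes such as Rn18s 100 were called (14.4%). Of 1117 genes with no match in the gene table, whose overlap is unknown here, 96 were called (8.59%). In PF against AD the shares were 3.06% of the overlapping, 0.357% of the others matched, 12.5% of the nested and 8.39% of the unmatched genes. In ET against AD only 2 of 15749 genes were called, 0 of 6597 overlapping genes and 2 of 8123 matched genes without overlap. The part of this overlap in the levels of Rn18s and Rn45s was not tested, since the fragments themselves were not analysed here.

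The genes most like Rn45s over the 17 libraries, by Pearson's r of log2(CPM + 1), were Moap1 (0.958), Lrrn4 (0.952), Capn12 (0.949), Tymp (0.948), Snurf (0.947), Sla2, Tmem150b and Prickle4 (each 0.946), and Lmln2 and LOC120100873 (each 0.945). Those most like Rn18s were Gdf1, Cers1, Mrpl53 and LOC120096002 (each 0.998) and Bricd5 (0.997). These coefficients rest mainly on the difference between PF and the other diets and are a description. Of deviations from the diet means, the values most like Rn45s were those of Zfp771 (0.775), Rhbdl1 (0.772), F2r (0.769), Lrrn4 (0.757) and Klf2 (0.746). For Rn18s they were P2ry12 (0.819), LOC102550017 (0.762), LOC102551138 and Zfr2 (each 0.753) and Gdf1 (0.747). Since Rn18s was at 0 in the 11 ET and AD libraries, its deviations there are 0, and these coefficients rest on the 6 PF libraries.

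Sex was not used in choosing the members and could be tested. In PF, Rn45s stood at 34.5 CPM in females (23.0 to 49.3, n = 3) and 44.4 CPM in males (38.5 to 51.5, n = 3), and Rn18s at 32.9 CPM in females (22.1 to 46.3) and 41.2 CPM in males (34.5 to 47.9). In ET, Rn45s was at 0.909 CPM in females (n = 2) and 1.10 CPM in males (n = 3). The ranges of the sexes overlapped in both diets. With diet in the model and the 11 ET and PF libraries, the log2 fold change of males against females was 0.34 for Rn45s (95% interval -0.32 to 1.01, adjusted p = 1, edgeR). For Rn18s the value was 0.32 (adjusted p = 1), which rests on the 3 males and 3 females of PF, since Rn18s was at 0 in every ET library. Neither passed an adjusted p of 0.05, as 0.0479% of genes did. By an exact permutation of sex within diets the two-sided p was 0.385 for Rn45s and, in PF alone, 0.30 for Rn18s, where the smallest p the design allows is 0.10.

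The side of the hippocampus was not used in choosing the members either. In PF, Rn45s was at 46.2 CPM in the 2 right hippocampi (43.2 to 49.3) and 36.02 CPM in the 4 left ones (23.0 to 51.5). Rn18s in PF was at 43.7 CPM on the right and 33.7 CPM on the left. In ET, Rn45s was lower on the right, at 0.860 CPM (n = 1) against 1.07 CPM on the left (0.238 to 2.21, n = 4). It was lower on the right in AD too, at 2.49 CPM (n = 1) against 3.91 CPM (2.19 to 8.68, n = 5). Over the 17 libraries with diet in the model, the log2 fold change of right against left was 0.07 for Rn45s (95% interval -0.70 to 0.83, adjusted p = 1, edgeR). For Rn18s the value was 0.38 (adjusted p = 1), which rests on the 2 right and 4 left hippocampi of PF. Without single libraries the Rn18s value ranged from 0.22 to 0.59. The sign for Rn45s was not stable, at -0.07 by DESeq2. Of 16265 genes 0 passed an adjusted p of 0.05 by edgeR (0%), with 797 at an unadjusted p below 0.05, and 2 passed by DESeq2. An exact permutation within diets gave a two-sided p of 0.82 for Rn45s and, in PF alone, 0.333 for Rn18s, where the smallest p possible is 0.067.

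Markers of other cell types were set beside these levels. The summed level of 10 glial genes was 13820 to 17650 CPM in PF, 17970 to 22680 CPM in ET and 15360 to 20950 CPM in AD, and 0 of the 10 were called in any diet comparison by edgeR or DESeq2, with 3, 2 and 1 at an unadjusted p below 0.05 by edgeR in ET against PF, PF against AD and ET against AD. The summed level of 9 blood genes was 325 to 1023 CPM in PF, 732 to 1391 CPM in ET and 560 to 1075 CPM in AD. Of the 8 tested, 0 were called. By edgeR 6 had an unadjusted p below 0.05 in ET against PF and 6 in PF against AD. Of all genes 11.9% and 16.4% did. All 8 had higher values in ET than in PF, with a median log2 fold change of 0.74 (0.38 to 0.78). All 8 had lower values in PF than in AD, with a median of -0.76 (-0.88 to -0.51). In ET against AD the median was -0.03 (-0.14 to 0.14). An adjusted p below 0.05 by edgeR was found for 1, 4 and 0 of the 8 in that order, and for 0 with all 17 libraries. The summed level of 10 choroid plexus genes was 252 to 10560 CPM in PF, 318 to 9754 CPM in ET and 210 to 11160 CPM in AD, and 0 of them were called by edgeR or DESeq2, with 0, 5 and 5 at an unadjusted p below 0.05 by edgeR in the same order of comparisons. In the final 14 libraries, the median log2 fold change of these 10 genes was 0.07 in ET against PF (range -0.43 to 0.64). It was 1.37 in PF against AD (-2.03 to 2.55) and 1.29 in ET against AD (-1.40 to 2.72). With all 17 libraries, which the summed levels cover, the medians were 0.043, 0.055 and 0.108. In that set 0 of the 10 genes had an unadjusted p below 0.05 by edgeR in any comparison. Over all genes tested 2.17%, 2.05% and 0.0127% were called in the 3 comparisons, and 2.74% had an unadjusted p below 0.05 in ET against AD. Every gene of these lists was detected. The part of these cells in the levels of Rn45s and Rn18s was not tested, and fewer cells of a type and less RNA per cell cannot be told apart in bulk tissue.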

How the data were processed

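Stranded mRNA libraries of 17 rat hippocampi were sequenced in 3 technical replicates each. The authors trimmed reads with Fastp, mapped them to mRatBN7.2 with Bowtie2 2.4.2 under default options and counted fragments on exons with featureCounts 2.0.1, with a mapping quality of at least 10. A read could count for more than 1 feature. The strand setting and the annotation release are not given in the sources used here. The deposited values are estimated counts: fragments per gene averaged by the authors over the technical replicates, not normalized, of which 53.3% are whole numbers. All, times 3, are whole to within 0.0001, and 3 times a value is the summed count, from which Wilson intervals and limits were computed. Depth was 10853947 to 17498392 fragments per library as the mean of the technical replicates and 32561841 to 52495177 as their sum, without molecular identifiers.

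CPM is the count divided by the library total. Diets were compared in pairs in the final 14 libraries of the study: counts were rounded to whole numbers, low genes removed with filterByExpr, libraries scaled by TMM and compared by edgeR 4.0.16 (quasi-likelihood test, R 4.3.3), with Benjamini-Hochberg adjustment over all genes tested. Calls required an adjusted p below 0.01 and a change of over 1.5 on the log2 scale in either direction. Standard errors are the absolute log2 fold change divided by the square root of F. Sex was tested in the ET and PF libraries and side in all 17, with diet as a covariate, at an adjusted p below 0.05. AD was left out of the sex test because 2 of its sex labels go against Y-linked genes. Alternatives were DESeq2 1.42.0, median-of-ratios scaling, no filter, sums of technical replicates, all 17 libraries, the replicate number as a block, leaving out Rn45s and Rn18s, and leaving out each library in turn. Leaving out overlapping genes, with or without those not matched, adding AD to the sex test and the spread and ratios of Rn45s without single libraries were chosen after seeing the data. The pairwise fit of the diets was checked on simulated ET and PF counts by edgeR and DESeq2. The fits with a covariate or a block were not checked in this way. No 2 libraries of a diet had counts within sampling noise (40 pairs).

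Groups and replicate numbers come from the sample titles. The members and the gene lists were chosen with earlier results of these data known. The genes named are the members, other structured RNAs with at least 10 counts on average in a diet (the 2 ribosomal RNAs, Rpph1 and called tRNAs by name, the rest by range or not printed), the 3 genes of smallest p in ET against PF of each synthesis list and of the histones, and the genes most like each member. Symbols matching the tRNA pattern that are protein-coding were left out of the structured RNAs. Of the symbols, 28858 (84.1%) matched the RefSeq gene table of GRCr8, used for lengths and overlaps only. Statistics and plots were made with Python 3.11.15, numpy 2.4.6, pandas 2.3.3, scipy 1.17.1, statsmodels 0.14.6 and matplotlib 3.10.9.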

Additional observations from a re-analysis of the deposited data

Results flagged for a closer look

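The Rn45s level of AD replicate 1, 8.68 CPM, stood apart from the other 5 AD libraries, with a gap to the nearest of them of 0.797 of the whole range against Dixon's critical value of 0.625 for 6 samples. The level of LOC120102105 in ET replicate 2, 3.69 CPM, stood apart in the same way, with a gap of 0.822 of the range against 0.710 for 5 samples. In all, 11 groups of values were examined in this way, and chance picks out about 1 in 20. AD replicate 1 is 1 of the 2 libraries whose sex label goes against its Y-linked genes, and ET replicate 2 is 1 of the 3 with high Ttr. The part of either fact in these levels was not tested.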

How the results depend on the processing

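The mean level of Rn45s in PF fell from 39.4 to 2.41 CPM when Rn18s was subtracted, by the construction of that alternative. TMM scaling, the study's final set and leaving out single libraries moved no mean of either gene by more than 1 SD. Leaving out genes that overlap another lowered the genes called to 129 in ET against PF and 122 in PF against AD, from 349 and 327, with 9301 and 9201 genes tested in place of 16068 and 15960. Leaving out genes not matched to the gene table as well gave 29 and 30 calls among 8169 and 8110 genes. Without a filter on low counts, 493 genes were called in PF against AD (468 in ET against PF), 7 of the structured RNAs and histones in ET against PF and 8 in PF against AD, against 4 and 5. Leaving out Rn45s and Rn18s gave 347 and 325 calls. Same-numbered libraries are different animals, and their deviations from the diet means correlated at 0.269 (2 pairs, ET and PF), -0.00792 (4 pairs, PF and AD) and -0.0498 (3 pairs, ET and AD) on average. With the replicate number as a block, over the libraries that carry a number, 197 genes were called in ET against PF, 295 in PF against AD and 0 in ET against AD, where 2 were called without it. Trnf was then not called in ET against PF (log2 fold change -2.23, adjusted p = 0.076, edgeR), nor Trnv in PF against AD (1.48, adjusted p = 0.020), and Trnc was not called in PF against AD without PF replicate 6 (log2 fold change 1.40). Trnv was called in ET against PF by DESeq2 (-1.51) and with all 17 libraries (-1.55), and with overlapping genes left out (-1.51). Leaving out 1 library at a time gave 325 to 358, 324 to 358 and 2 to 3 calls. The side difference of Rn45s turned to -0.066 with DESeq2, and ranged from -0.087 to 0.271 without single libraries, below 0 without PF replicate 1, 2 or 6. The log2 fold change of LOC120102105 in ET against PF was 0.01 with all 17 libraries. Where not stated otherwise, the cause was not tested. The members' sex difference kept its sign in every alternative, from 0.10 to 0.62 without single libraries, and with the AD libraries added that of Rn45s was 0.50 as labelled and 0.24 without AD replicates 1 and 2. At the low counts of Rn45s in ET, 3.3 to 30.3, counting error alone gives wide intervals.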
